A study of Mus musculus with 6 samples.

Results

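The genes described here are 40 markers of the endothelial cells that line the blood vessels of the brain, chosen by name as endothelial and blood-brain barrier markers. All 40 were found by Ensembl identifier among the 26789 genes of the normalized count table, and all 40 had a mean normalized count of 10 or more, the filter that 18007 genes in all passed. The libraries were labelled as microglia of mice whose mothers received a control diet (3 libraries) or a low sodium diet (3 libraries) in pregnancy. According to the methods of the study, the low sodium diet ran from E3 to E12 of gestation (hence "E3–E12 diet mice") and gave way to standard chow afterwards, which controls had throughout. Each library came from the rostral nucleus of the solitary tract (NST), the first taste relay of the brainstem, of 6 pooled P15 littermates, so that 1 library stands for 1 litter. Cells were enriched with magnetic beads against CD11b, whereas the labels name laser microdissection. Endothelial cells carry no CD11b, so the marker genes below were read in a fraction selected for another cell type.

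Endothelial cells of the brain form the blood-brain barrier. Tight junctions built on claudin 5 seal the gaps between them, efflux pumps and selective transporters decide what crosses, and VEGF, angiopoietin and Wnt signals acting with ETS-family and SOX-family transcription factors keep up their identity. After birth the vessels of the brain are still growing.

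The normalized counts of a library summed to between 9407141 and 17204618. Control replicate 2 had the highest total. In it 8 of the 40 members (20%) were listed at 0, near the share of 16.2% over all genes tested, so these zeros are not particular to the members. In each of the other libraries 0 members were listed at 0. Over the whole table it also had the most genes listed at 0 (10640, against 3459 to 7135). Among 20 genes that all cells use, Ppib was listed at 0 in control replicates 1 and 2, and the microglial gene Tyrobp was listed at 0 in all 3 E3–E12 diet libraries, so a 0 in this table can be a failed estimate. For the 8 members listed at 0 no mean is given, and comparisons that rest on control replicate 2 are given with and without it. In these bulk libraries fewer endothelial cells and less RNA per endothelial cell cannot be told apart.

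Endothelial transcripts of every member were present in the other 5 libraries. As normalized counts per kilobase of exon, the median over the 6 libraries was highest for Bsg (4089), which encodes the transporter chaperone basigin, and for Tjp1 (1609.7), which encodes the junction scaffold ZO-1, but both are used by many cell types. Some members are classed here as little used by other brain cells. The highest median levels per kilobase among them were 586 for Ptprb, 512 for Eng, 432 for Ly6c1 and 400 for Mfsd2a. Next came 363 for Cdh5, 362 for Adgrf5, 339 for Cldn5 and 331 for Flt1. The class is not strict, as activated macrophages also make Eng. Of all 40 members the lowest were 3.66 for Fn1, 23.3 for Ocln and 26.1 for Sox17. Over the 6 libraries the ranges of neighbours in the order of all 40 overlapped, except that Bsg was above Tjp1 in all of them. The values that follow are normalized counts per gene, listed by replicate 1, 2 and 3 of each group.

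**Figure D1:**
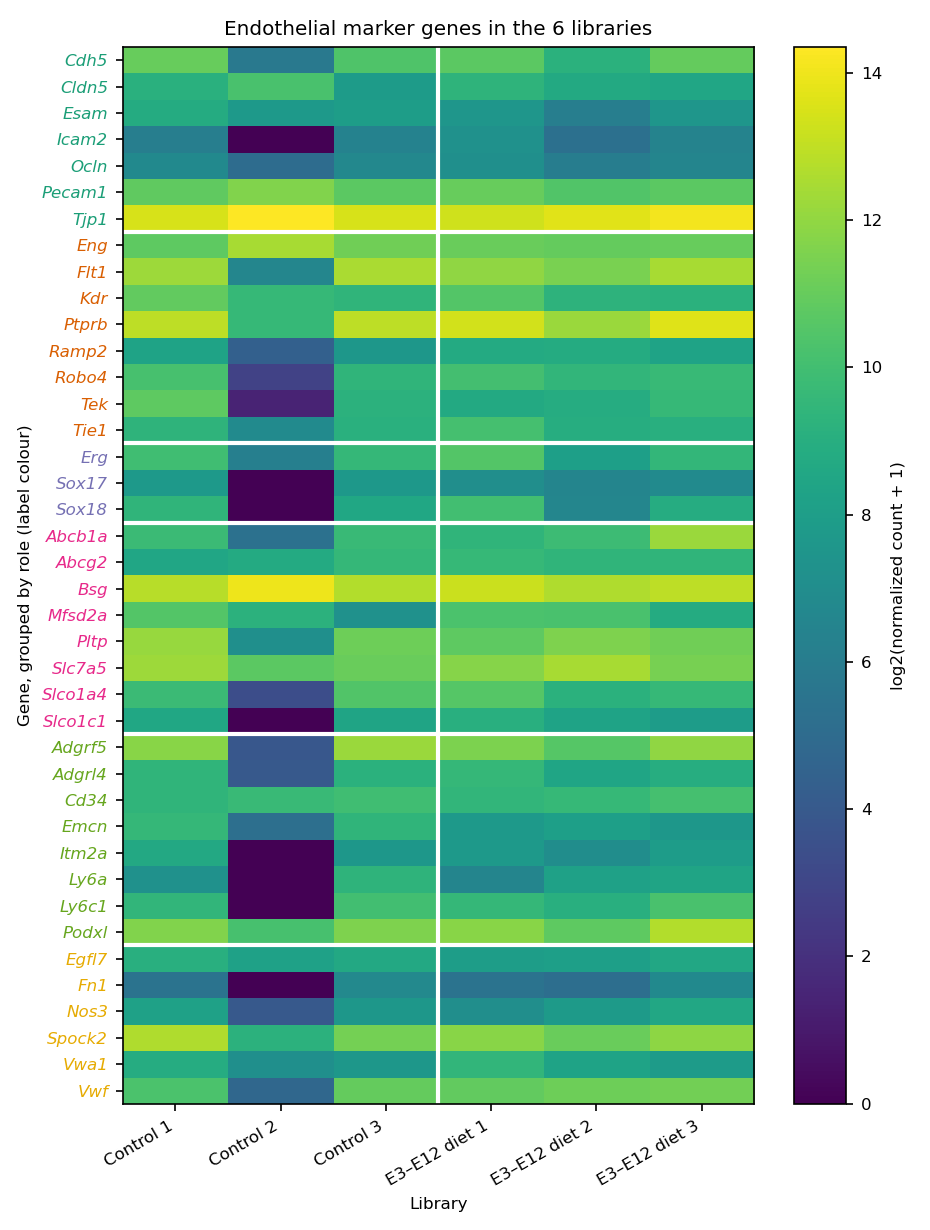
Level of each of the 40 endothelial marker genes (rows, grouped by role and coloured by it) in each library (columns), as log2(normalized count + 1) on the colour scale. The second column, control replicate 2, is the darkest for 29 of the 40 genes and the brightest for Cldn5, Pecam1, Eng, Bsg and Tjp1, while no gene is at 0 in the other 5 columns.

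Diet was compared first. None of the 40 genes passed the adjusted threshold of 0.1 (0 genes, adjusted p = 0.999 throughout; limma, Benjamini-Hochberg adjustment over all genes tested), and 0 had an unadjusted p under 0.05, where 1.82% of all genes tested did (0.95% upwards and 0.866% downwards with the E3–E12 diet). Over all genes tested, 0.0% passed the adjusted threshold. With all 6 libraries, 31 of the 40 had a higher mean log2 level with the E3–E12 diet, as did 54.4% of all genes tested, and the median log2 fold change was 1.13 for the members and 0.087 for all genes. Without control replicate 2, 15 of the 40 were higher, against 49.1% of all genes, and the medians were -0.09 and -0.0038. Thus the majority direction among endothelial genes rested on 1 control library. A log2 fold change here is E3–E12 diet minus control on the log2(normalized count + 1) scale, which gives a value near 0 in a single library great weight. The median standard error over the members was 1.19 with all libraries and 0.63 without control replicate 2, so a difference of that size in a single gene was not detectable.

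Esam was the only member whose groups did not overlap (1 of 40, against 5.9% of all genes tested, with 2.91% lower, as Esam was). Esam (ENSMUSG00000001946, chr9:37528078-37538319, plus strand of GRCm38) encodes an adhesion molecule of endothelial tight junctions, and its values were 451, 218 and 251 with the control diet and 185, 68.5 and 185 with the E3–E12 diet. Every E3–E12 diet library was below every control, with 307 ± 126 for controls against 146 ± 67.4 for the E3–E12 diet (SD, n = 3 libraries each; exact permutation p = 0.1, two-sided, the smallest that 3 against 3 allows). Its log2 fold change was -1.12 (SE 0.68), and without control replicate 2 it was -1.33 (SE 0.70). Without that library 4 members did not overlap between groups (10%, against 14.4% of all genes tested), all 4 lower with the E3–E12 diet, as were 7.66% of all genes, and none higher, as were 6.7%. These were Esam, Emcn, Egfl7 and Sox17.

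**Figure D2:**
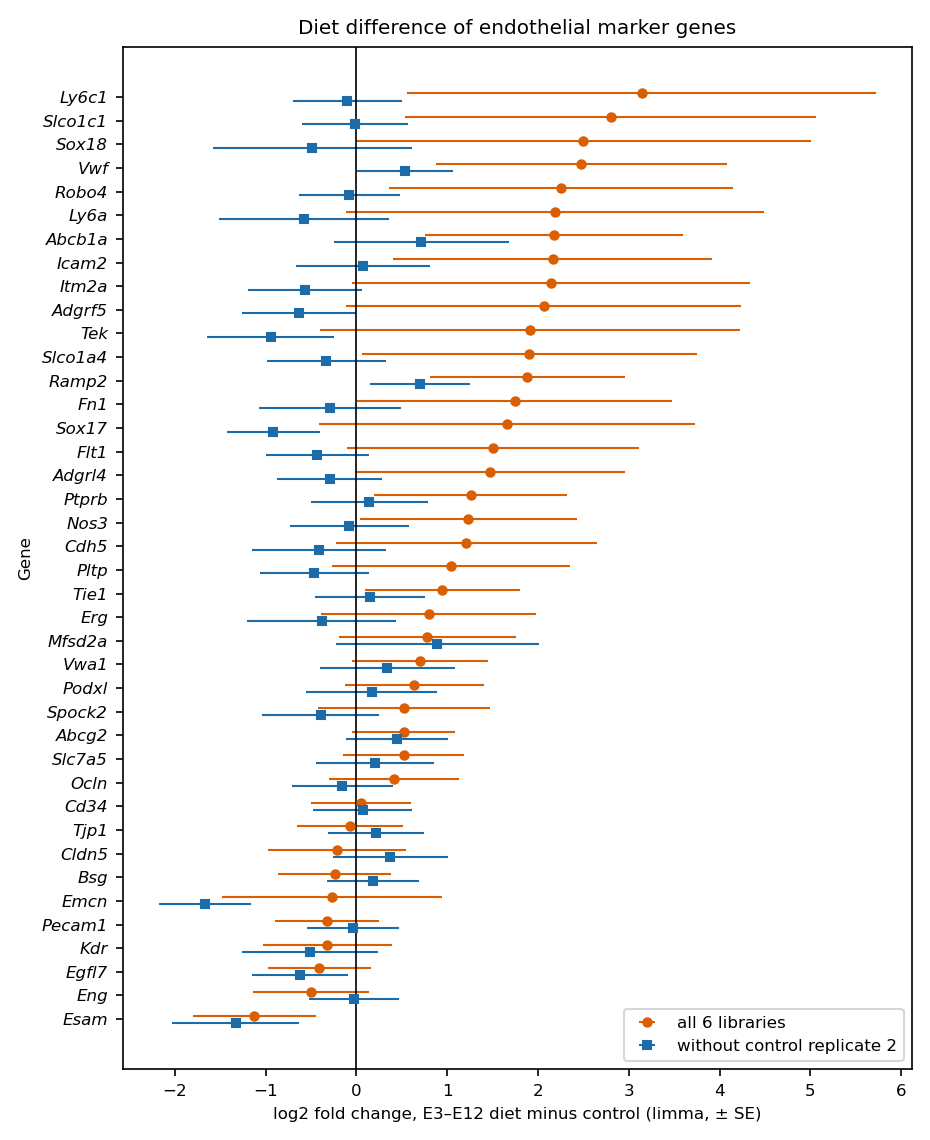
Log2 fold change of each endothelial marker gene between diets (horizontal axis, E3–E12 diet minus control, ± SE from limma), with all 6 libraries (circles) and without control replicate 2 (squares). Most circles lie to the right of 0, with 31 of 40 above it, whereas 15 of 40 squares do.

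Among the 7 genes of junctions and adhesion, 3 had a higher mean log2 level in E3–E12 diet mice, with and without control replicate 2. Cldn5, the claudin that seals the barrier, had 540.2, 1207 and 237 with the control diet and 652, 421 and 363 with the E3–E12 diet. It was highest in control replicate 2, the library in which most members were lowest, and the groups overlapped (log2 fold change -0.21, SE 0.76, or 0.37 (SE 0.63) without that library). Pecam1, the CD31 antigen of endothelial contacts that leukocytes and platelets also carry, had control values of 1807, 3154 and 1695 and E3–E12 diet values of 2067, 1399 and 1717 and was again highest in control replicate 2 (log2 fold change -0.32, SE 0.57, or -0.037 (SE 0.51) without it). Cdh5, the VE-cadherin of endothelial adherens junctions, went the other way. Its values were 2067, 55.7 and 1346 with the control diet and 1703, 581 and 1978 with the E3–E12 diet, so that control replicate 2 held 3.27% of the mean of the other controls. Control replicates 1 and 3 lay within or just above the range of the E3–E12 diet libraries (log2 fold change 1.21, SE 1.44, and -0.41 (SE 0.74) without control replicate 2). Icam2, an adhesion ligand for leukocytes, was listed at 0 in control replicate 2 and was otherwise between 37.9 and 155, with 69.6, 0 and 81.9 with the control diet and 155, 37.9 and 85.2 with the E3–E12 diet. Ocln (occludin) was between 32.0 and 138 and Tjp1 between 10055 and 20849.7 over the 6 libraries, without separation of the diets.

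Of 8 growth factor and guidance receptors and their partners, 6 had a higher mean log2 level in E3–E12 diet mice with all libraries and 3 without control replicate 2. Flt1, which encodes VEGF receptor 1, had 4934, 95.4 and 5946 with the control diet and 4019, 2804 and 5761 with the E3–E12 diet. Outside control replicate 2, which held 1.75% of the mean of the other controls, the libraries lay within 2.12-fold of each other, and both remaining controls were above the mean of the E3–E12 diet libraries (log2 fold change 1.51, SE 1.61, or -0.43 (SE 0.56) without control replicate 2). Kdr, VEGF receptor 2 and the main signalling receptor for VEGF, was not depleted in that library, with control values of 1914, 768 and 678 and E3–E12 diet values of 1432, 617 and 580.0 (log2 fold change -0.32, SE 0.71, or -0.51 (SE 0.75) without it). Tek, the angiopoietin receptor TIE2, had 1775, 1.7 and 592 with the control diet and 419, 469 and 767 with the E3–E12 diet, its value in control replicate 2 being 0.143% of the mean of the other controls. Its log2 fold change changed sign from 1.91 (SE 2.31) to -0.94 (SE 0.70) when control replicate 2 was left out. Tie1, the partner of TIE2, was also lowest in control replicate 2, with 642, 114 and 551 in controls against 1116, 497 and 520.3 in E3–E12 diet mice (log2 fold change 0.94, SE 0.85, or 0.15 (SE 0.60) without that library). Eng, the TGF-beta co-receptor endoglin, which activated macrophages also make, had 1764, 5577 and 2456 with the control diet and 2115, 1984 and 2027 with the E3–E12 diet. Its E3–E12 diet libraries were close together, at 2042 ± 66.9, and control replicate 2 was the highest library (log2 fold change -0.50, SE 0.64, or -0.028 (SE 0.50) without it).

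Ramp2 (ENSMUSG00000001240, chr11:101246028-101259546, plus strand), which lets the calcitonin receptor-like receptor bind adrenomedullin, had the smallest unadjusted p of the members. Its values were 318, 20.1 and 190.2 with the control diet and 442, 460.1 and 315 with the E3–E12 diet, or 176 ± 149.6 for controls against 406 ± 79.1 for the E3–E12 diet (SD, n = 3; exact permutation p = 0.2), with overlap of the groups by 1 pair of libraries. The log2 fold change was 1.88 (SE 1.07), and 0.70 (SE 0.55) without control replicate 2, and 33.4% of its exon bases are overlapped by exons of other genes, so reads of a neighbour may be included. Robo4, a guidance receptor that stabilizes vessels, had 1161, 5.98 and 678 with the control diet and 1081, 686 and 801 with the E3–E12 diet. It ranged only 1.71-fold over the other 5 libraries, and its log2 fold change of 2.25 (SE 1.89) became -0.077 (SE 0.56) without control replicate 2. Ptprb, the phosphatase VE-PTP that restrains TIE2, was one of the most abundant members, at 7771, 767 and 7866 in controls against 10676, 4665 and 12856 in E3–E12 diet mice (log2 fold change 1.26, SE 1.07, or 0.14 (SE 0.64) without control replicate 2).

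The 3 transcription factors were each lowest in control replicate 2. Erg, the ETS factor that maintains endothelial identity, had 986, 73.3 and 755 with the control diet and 1440.2, 276 and 728 with the E3–E12 diet (log2 fold change 0.80, SE 1.18). Sox17 and Sox18, SOX factors of arterial and lymphatic endothelium, were both listed at 0 in control replicate 2. Sox17 otherwise had 219 and 204 in controls against 136, 89.8 and 113 in E3–E12 diet mice, every one of the latter lower, and Sox18 had 659, 0 and 377 with the control diet and 1012, 94.2 and 467 with the E3–E12 diet. All 3 factors had a higher mean log2 level in E3–E12 diet mice with all libraries, and none did without control replicate 2, where the log2 fold changes were -0.38 (SE 0.82) for Erg, -0.92 (SE 0.51) for Sox17 and -0.49 (SE 1.10) for Sox18. 16.8% of the exon bases of Sox17 are overlapped by another gene.

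Of 8 transporters and their partners, 7 were higher in E3–E12 diet mice with all libraries and 5 without control replicate 2. Abcb1a, the P-glycoprotein pump that returns drugs to the blood, had 879.7, 40.3 and 836 with the control diet and 660.0, 900.1 and 4692 with the E3–E12 diet. E3–E12 diet replicate 3 alone was far above the others, and the other 2 E3–E12 diet libraries lay around control replicates 1 and 3 (log2 fold change 2.17, SE 1.42, and 0.71 (SE 0.97) without control replicate 2; exact permutation p = 0.4). 22.5% of the 50-base windows of its transcripts also occur in other genes, mostly its copy Abcb1b, which had 186, 37.8 and 289 in controls against 78.3, 635 and 210.2 in E3–E12 diet mice and was not high in that library. Slco1a4, an organic anion transporter of brain endothelium, had 873, 9.61 and 1425 with the control diet and 1542, 583 and 769.9 with the E3–E12 diet (log2 fold change 1.90, SE 1.85, and -0.33 (SE 0.65) without control replicate 2). Slco1c1, which carries thyroxine into the brain and is also made by astrocytes and choroid plexus, was listed at 0 in control replicate 2, with control values of 371, 0 and 329.6 and E3–E12 diet values of 534, 323 and 239. Its log2 fold change of 2.80 (SE 2.26), the second highest of the members, became -0.017 (SE 0.58) without that library.

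Mfsd2a, the lysolipid transporter that holds down transcytosis at the barrier, was the most variable member outside control replicate 2 on the log2 scale. It had 1468, 593 and 153 with the control diet and 1249, 1208 and 451 with the E3–E12 diet, with the lowest value in control replicate 3, and the groups overlapped (log2 fold change 0.78, SE 0.97, or 0.89 (SE 1.12) without control replicate 2). Abcg2, a drug efflux pump also found on stem cells and microglia, spread little, with 365, 441 and 739 in controls against 791, 662 and 671 in E3–E12 diet mice. Slc7a5, the large neutral amino acid transporter, ranged from 1715 to 5644, Bsg from 6368 to 16340.1, highest in control replicate 2, and Pltp, a phospholipid transfer protein, from 140.3 in control replicate 2 to 4548 in control replicate 1. None of these separated the diets. Exons of other genes overlap 19.3% of the exon bases of Pltp.

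In the group of 8 surface glycoproteins and receptors, Emcn (ENSMUSG00000054690, chr3:137341067-137432185, plus strand), the endomucin of capillary and venous endothelium, differed most between diets once control replicate 2 was set aside. With all libraries 7 of these 8 were higher in E3–E12 diet mice, and 2 without that library. Emcn had 751, 37.1 and 666 with the control diet and 208, 274 and 189 with the E3–E12 diet. All 3 E3–E12 diet libraries were below control replicates 1 and 3 but above control replicate 2, so the log2 fold change was -0.27 (SE 1.21) with all libraries and -1.67 (SE 0.51) without that one. Emcn was the only member with an unadjusted p under 0.05 without control replicate 2 (limma, adjusted p = 0.9999), a share of 2.5% of the members against 2.25% of all genes tested. Ly6c1, an antigen of brain endothelium that monocytes also carry, had the largest log2 fold change of the members with all libraries, 3.14 (SE 2.58). Its values were 691, 0 and 1033 with the control diet and 759, 537 and 1197 with the E3–E12 diet, and the log2 fold change was -0.10 (SE 0.60) without the library listed at 0. 32.8% of its 50-base windows also occur in other genes, mostly Ly6c2, so the 2 cannot be fully told apart. Ly6a (Sca-1), which shares 19.0% of its windows, mostly with Ly6c1, had 149.6, 0 and 647 in controls against 92.0, 296 and 332 in E3–E12 diet mice.

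Adgrf5, an adhesion G protein-coupled receptor, had 3544, 14 and 4633 with the control diet and 2975, 1518 and 3966 with the E3–E12 diet, with 0.342% of the mean of the other controls left in control replicate 2. The log2 fold change turned from 2.06 (SE 2.18) to -0.63 (SE 0.63) without it, and the related Adgrl4 behaved likewise, with 661, 14.8 and 580.4 in controls against 754, 341 and 498 in E3–E12 diet mice and log2 fold changes of 1.47 and -0.30. Itm2a was listed at 0 in control replicate 2 and had 131 to 410.0 elsewhere. Podxl (podocalyxin) ranged from 1161 in control replicate 2 to 6685 in E3–E12 diet replicate 3. Cd34, a sialomucin of endothelium and blood progenitors, differed least over the 6 libraries, with 659, 838 and 983 in controls against 692, 782 and 1114 in E3–E12 diet mice (log2 fold change 0.05, SE 0.55, or 0.07 (SE 0.54) without control replicate 2).

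Of 6 genes for secreted and matrix proteins and enzymes, 5 had a higher mean log2 level in E3–E12 diet mice with all libraries and 2 without control replicate 2. Vwf (ENSMUSG00000001930, chr6:125546774-125686679, plus strand), the clotting protein stored in endothelial granules, had in control replicate 2 1.65% of the mean of the other controls, the lowest share among these 6 genes apart from Fn1. Its values were 1224, 26.3 and 1964 with the control diet and 1948, 2309.5 and 2518 with the E3–E12 diet, or 1071 ± 978 for controls against 2258 ± 288 for the E3–E12 diet (SD, n = 3; exact permutation p = 0.2). The highest control, replicate 3, was just above the lowest E3–E12 diet library, so the groups overlapped in 1 pair of libraries (log2 fold change 2.48, SE 1.60, and 0.53 (SE 0.53) without control replicate 2). Egfl7, a secreted guide of vessel tubes, had control values of 538, 299 and 399 and E3–E12 diet values of 255, 273 and 392, all E3–E12 diet values being below control replicates 1 and 3 (log2 fold change -0.41, SE 0.57, and -0.62 (SE 0.53) without control replicate 2). Nos3, endothelial nitric oxide synthase, had 298, 14.9 and 194 in controls against 135, 224 and 389 in E3–E12 diet mice, with 32.3% of its exon bases overlapped by another gene. Fn1 (fibronectin), abundant in vessels elsewhere, was scarcely present, from 0 in control replicate 2 to 113. Spock2, a proteoglycan also made by neurons and astrocytes, ranged from 595 in control replicate 2 to 6276, and Vwa1, a basement membrane protein, from 139 in control replicate 2 to 698. Exons of other genes overlap 25.2% of the exon bases of Vwa1 and 11.2% of those of Egfl7. Vwf, Flt1, Ly6c1, Abcb1a, Adgrf5 and Ptprb are also in the study's list of genes upregulated in E3–E12 diet mice, as is Slc2a1, among the further genes below. The study drew that list from these same libraries with DESeq2 and an adjusted p under 0.1. None of these genes passed that threshold here, where normalized counts were tested with limma, and the reason for the difference was not tested. As the libraries are the same, their direction here is not independent evidence.

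How the members varied with control replicate 2 was then counted. That library alone was the lowest of the 6 for 29 of the 40 genes (72.5%), against 33.8% of all genes tested, and 22 of the 40 lay under 10% of the median of the other 5 libraries, against 20% of all genes, and 30 under 50% of it, against 38.7%. The median difference from the other 5 libraries was -3.59 on the log2 scale for the members and -0.27 for all genes tested. By contrast 5 of the 40 (12.5%, against 26.3% of all genes) were highest there: Cldn5, Pecam1, Eng, Bsg and Tjp1. The 28 members little used by other brain cells had a median difference of -4.17, and the 12 that other brain cells also use one of -1.56. Among the other 5 libraries, E3–E12 diet replicate 2 was the lowest for 20 of the 40 members (50%, against 20.6% of all genes tested). The standard deviation of the log2 level over these 5 libraries had a median of 0.57 for the members and 0.79 for all genes tested. These are descriptions of libraries, without a test.

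**Figure D3:**
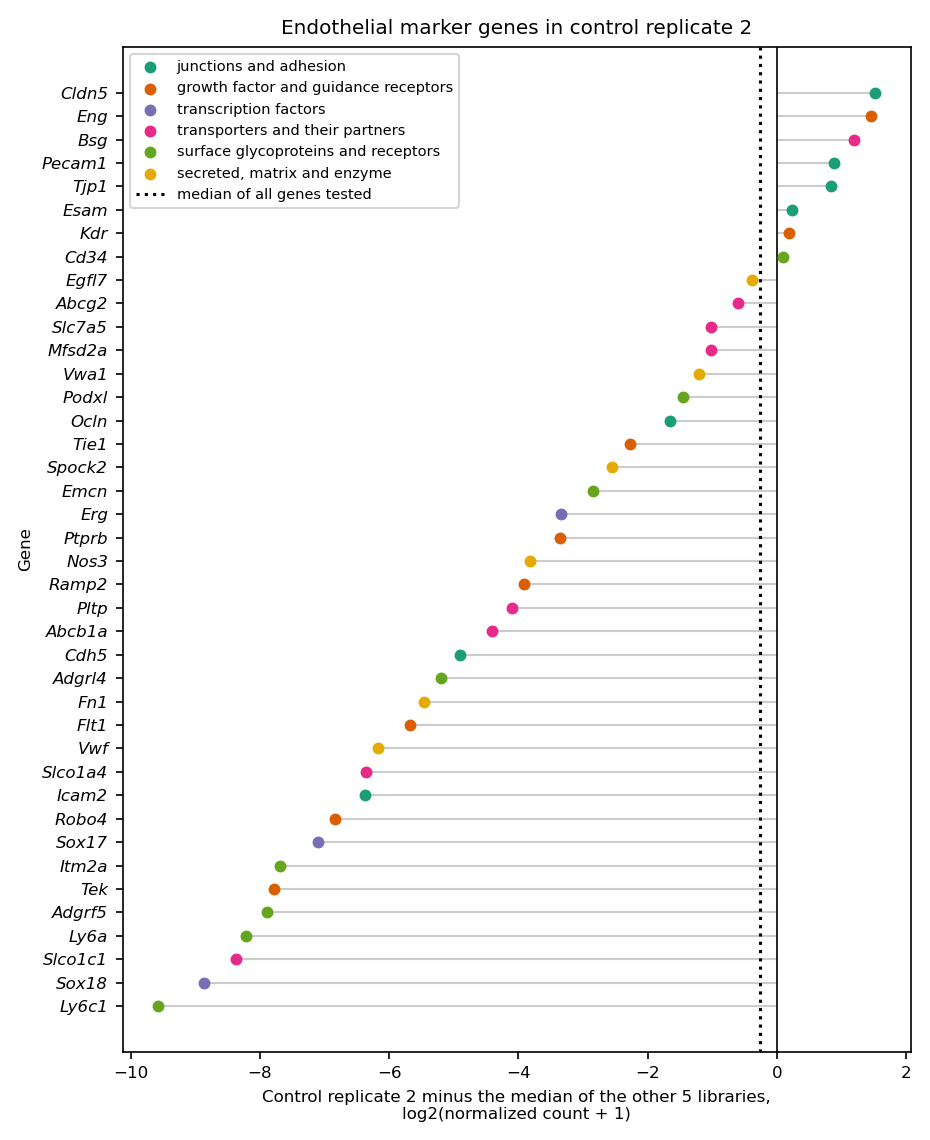
Difference between control replicate 2 and the median of the other 5 libraries for each endothelial marker gene (horizontal axis, log2 scale, points coloured by role), with the median of all genes tested as a dotted line at -0.27. Ly6c1 and Sox18 lie farthest to the left, and Cldn5, Eng, Bsg, Pecam1 and Tjp1 farthest to the right. Esam (0.23), Kdr (0.18) and Cd34 (0.099) lie just to the right of 0.

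Promoter windows are shown for 3 members that were nearly absent from control replicate 2 and 2 that were highest in it. They are the 250 bases before the annotated RefSeq start (GRCm38.p6), 5′ to 3′, with matches of the ETS core AGGAAG or the SOX core AACAAT on either strand in capitals.
Flt1 (chr5:147726012-147726261, minus strand): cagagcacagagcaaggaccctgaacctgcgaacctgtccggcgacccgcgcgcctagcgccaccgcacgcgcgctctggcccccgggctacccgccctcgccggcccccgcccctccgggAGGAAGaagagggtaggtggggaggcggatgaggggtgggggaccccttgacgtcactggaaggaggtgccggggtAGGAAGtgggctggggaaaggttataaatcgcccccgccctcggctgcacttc
Tek (chr4:94739039-94739288, plus strand): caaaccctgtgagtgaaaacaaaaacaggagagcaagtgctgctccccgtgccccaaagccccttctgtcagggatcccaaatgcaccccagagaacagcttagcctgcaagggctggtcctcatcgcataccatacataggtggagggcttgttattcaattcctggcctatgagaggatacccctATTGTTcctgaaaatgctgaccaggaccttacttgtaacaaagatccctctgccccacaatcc
Robo4 (chr9:37401722-37401971, plus strand): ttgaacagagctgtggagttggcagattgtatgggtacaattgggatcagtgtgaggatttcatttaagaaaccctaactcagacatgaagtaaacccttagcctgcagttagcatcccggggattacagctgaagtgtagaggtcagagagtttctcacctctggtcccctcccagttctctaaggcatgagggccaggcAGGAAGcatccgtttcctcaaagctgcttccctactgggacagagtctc
Cldn5 (chr16:18776597-18776846, plus strand): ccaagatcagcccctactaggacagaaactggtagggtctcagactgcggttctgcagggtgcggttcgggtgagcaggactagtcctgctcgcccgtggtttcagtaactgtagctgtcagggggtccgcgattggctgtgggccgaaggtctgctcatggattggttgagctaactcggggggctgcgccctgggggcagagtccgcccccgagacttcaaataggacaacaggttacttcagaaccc
Eng (chr2:32646345-32646594, plus strand): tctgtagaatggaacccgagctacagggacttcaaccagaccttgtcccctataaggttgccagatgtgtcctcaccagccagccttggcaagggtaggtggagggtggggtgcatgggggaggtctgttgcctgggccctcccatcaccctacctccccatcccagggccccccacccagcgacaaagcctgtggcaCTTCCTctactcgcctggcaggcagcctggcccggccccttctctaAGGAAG
AGGAAG or its complement stood 2 times in the Flt1 window, 1 time in that of Robo4 and 2 times in that of Eng, AACAAT 1 time in that of Tek, and the Cldn5 window held neither. A window was found for 24 of the 40 members, some of them with several starts. AGGAAG was in 19 of their 33 windows (57.6%) and in 29.5% of the 32851 windows of all genes, and AACAAT in 4 of 33 (12.1%) against 9.42%. A match is a run of letters, not a binding site.

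Markers of other cell types were summed beside the endothelial genes. The 28 members little used by other brain cells summed to 38617, 13245 and 36623 with the control diet and 39928, 23934 and 44893 with the E3–E12 diet. The 15 mural cell genes, markers of the pericytes and smooth muscle that sheathe vessels, summed to 19188, 4789 and 15273 with the control diet and 21982, 10160.4 and 13058 with the E3–E12 diet, so that they too were lowest in control replicate 2, where Ndufa4l2, Des and Kcnj8 were listed at 0. Their most abundant member, Rgs5, had 12048, 473 and 9508 in controls against 11449, 4418 and 6285 in E3–E12 diet mice, while Notch3 was not low there, with 2039, 1902 and 1471 in controls against 3968, 1574 and 2233 in E3–E12 diet mice. The 14 astrocyte genes summed to 14672, 3134 and 8679 with the control diet and 17764, 9762 and 7404 with the E3–E12 diet, and the 12 choroid plexus genes to 15843, 1375 and 31928 with the control diet and 61335, 1675 and 1973 with the E3–E12 diet, the latter low also in E3–E12 diet replicates 2 and 3. Control replicate 2 was the lowest library, or tied for it, for 9 of the 14 astrocyte genes, with Aldh1l1, Gfap, Gjb6 and Mlc1 listed at 0, whereas Fgfr3 was highest there, with 93.7, 430.3 and 137 in controls against 280.2, 122 and 54.8 in E3–E12 diet mice. Of the 12 choroid plexus genes it was lowest or tied for 5, with Folr1 and Otx2 listed at 0, whereas Cldn2 was second highest there, with 91.6, 292 and 140.3 in controls against 419.6, 0 and 0.941 in E3–E12 diet mice. The 20 microglial genes, by contrast, summed to 131753, 610500.3 and 370643 with the control diet and 122604, 307330.0 and 421471 with the E3–E12 diet and were highest in control replicate 2. Per 100 microglial normalized counts, the 28 endothelial genes had 29.3, 2.17 and 9.88 with the control diet and 32.6, 7.79 and 10.7 with the E3–E12 diet, with wide overlap of the groups. In control replicate 2 most of the endothelial sum came from Eng (5577), Pecam1 (3154) and Cldn5 (1207), and the median log2 level of the 28 genes was 5.31 there, against 8.92 to 9.78 in the other libraries. Macrophages also make Eng and leukocytes also carry Pecam1, so the cell source of that sum cannot be told. The neuronal and oligodendrocyte sums were not lowest in control replicate 2. Neuronal genes summed to 15770.3, 4071 and 3635 with the control diet and 9885, 4285 and 3546 with the E3–E12 diet. Oligodendrocyte genes summed to 45155, 18725 and 5689 with the control diet and 18536, 25942 and 7052 with the E3–E12 diet. The erythroid sums ranged from 12.7, in control replicate 2, to 220.4. Of the defining microglial markers, Cx3cr1 had 13989.6, 69912 and 24016 in controls against 13375, 41799.6 and 41551 in E3–E12 diet mice. The part of these differences in cell makeup in the results above was not tested.

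**Figure D4:**
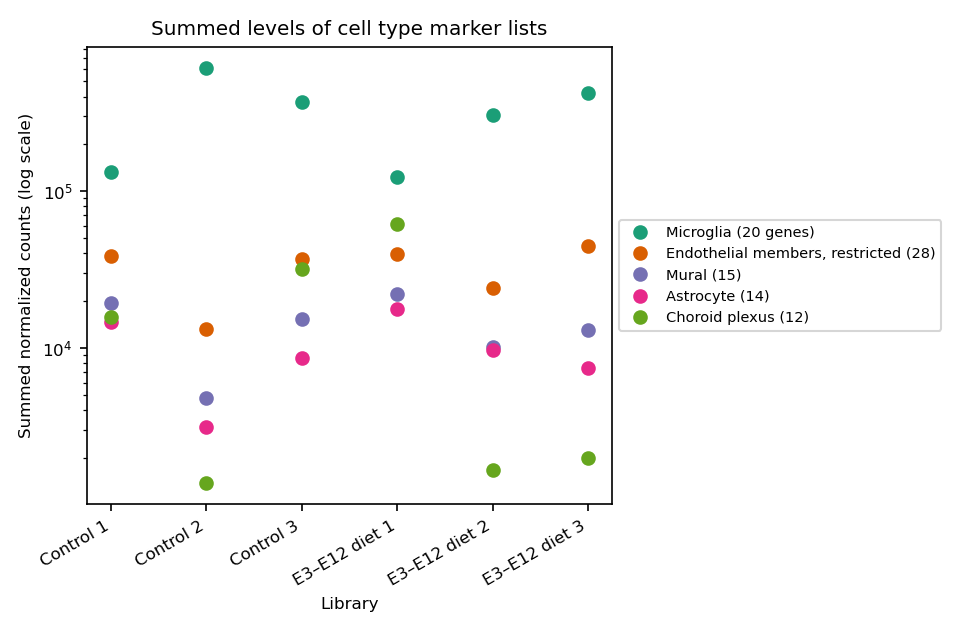
Summed normalized counts (vertical axis, log scale) of 5 marker lists in each library (horizontal axis), 1 point per list and library. The microglial sum is highest and the endothelial, mural, astrocyte and choroid plexus sums are lowest in control replicate 2.

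A further 65 genes of endothelium and barrier, including Wnt targets, arterial, venous and tip cell genes, were all tested. None passed the adjusted threshold (0 genes, limma, adjusted p = 0.999 throughout), and 0 had an unadjusted p under 0.05. Control replicate 2 alone was the lowest for 43 of them (66.2%, against 33.8% of all genes tested), and 19 were listed at 0 in it (29.2%, against 16.2%). The groups did not overlap in 3 genes (4.62%, against 5.9% of all genes tested), of which 2 were higher with the E3–E12 diet (3.08%, against 2.99%) and 1 lower (1.54%, against 2.91%). Without control replicate 2 they did not overlap in 10 (15.4%, against 14.4%), of which 2 were higher (3.08%, against 6.7%) and 8 lower (12.3%, against 7.66%). Gja5, a connexin of arterial endothelium, had 75.9, 19.5 and 48.9 with the control diet and 253, 86.4 and 79.8 with the E3–E12 diet (log2 fold change 1.5, SE 0.79, or 0.97 (SE 0.72) without control replicate 2; exact permutation p = 0.1). Slc3a2, the heavy chain that pairs with Slc7a5, had 517, 227 and 642 with the control diet and 787, 698 and 1269.7 with the E3–E12 diet (log2 fold change 1.07, SE 0.66, or 0.62 (SE 0.55) without that library; exact permutation p = 0.1). Arhgap29, a regulator of vessel tubes, was lower, with 483, 261 and 319.5 with the control diet and 194, 211 and 258 with the E3–E12 diet (log2 fold change -0.64, SE 0.56, or -0.84 (SE 0.52) without it; exact permutation p = 0.1). Without control replicate 2, 3 genes had an unadjusted p under 0.05, all lower in E3–E12 diet mice (4.62%, against 1.46% of all genes tested). They were Tspan12, a co-receptor of norrin and Wnt signalling, with 66.1, 0 and 29.7 in controls against 12.5, 8.95 and 9.9 in E3–E12 diet mice, the Notch target Hey1, with 61.1, 0 and 79.2 in controls against 15.8, 14.6 and 28.4 in E3–E12 diet mice, and Plvap, a protein of fenestrated vessels such as those of the choroid plexus, with 242, 0 and 224 in controls against 135, 19.1 and 17.0 in E3–E12 diet mice. All 3 were listed at 0 in control replicate 2, and none passed the adjusted threshold (limma, adjusted p = 0.9999 throughout).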

How the data were processed

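Normalized counts per gene of 6 mouse microglial libraries, 3 per diet, were analysed. The authors deposited these scaled counts (coverage signal per gene, not raw counts) under Ensembl identifiers. Per the labels, FastQC, STAR, featureCounts, DESeq2 and GRCm38 were used, without stated roles, and the table's name mentions surrogate variables. Values were not whole multiples of a common step, so the reads counted per gene could not be recovered and no count model was run. The study's methods give a range of reads per sample, not the depth of each library. The methods and the labels disagree on how cells were isolated. Of 26789 identifiers, 26507 matched a symbol.

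Genes with a mean of at least 10 were compared as log2(value + 1) with limma 3.58.1 in R 4.3.3, two-sided, with Benjamini-Hochberg adjustment over 18007 genes and the threshold of 0.1 from the study's methods. Single genes were tested by exact permutation over 20 splits. Gene lists were described by counts and medians. The limma code was run on simulated data with the same spread in every library and no outlying library. These libraries differ from that, so the run does not show how well limma detects differences here. Exon lengths, overlaps and shared 50-base windows came from GENCODE M21 (GRCm38), promoters from RefSeq (GRCm38.p6).

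Named genes were the 12 defining members Cldn5, Pecam1, Cdh5, Flt1, Kdr, Tek, Tie1, Vwf, Slco1a4, Abcb1a, Ly6c1 and Adgrf5, members without overlap between groups, and the 5 with the highest and 5 with the lowest moderated t, with the other members by range. The members and lists were chosen with earlier results of these data known. p-values measure the spread between litters. Alternatives were another normalization, pseudocount, filter, weights, a replicate block and leaving out each library.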

Additional observations from a re-analysis of the deposited data

How the results depend on the processing

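No member passed the adjusted threshold under any of the 16 alternatives run, and the other endothelial genes gave 0 calls likewise. The median log2 fold change of the members was 1.13 with all libraries, between 0.84 and 1.25 under other scalings, pseudocounts, filters, variance models and the replicate block, -0.03 with array weights, and from -0.09 to 1.92 with each library left out. The lowest of these was without control replicate 2 and the highest without control replicate 1. Members with an unadjusted p under 0.05 numbered 0, or 0 to 1 with a library left out. Signs of log2 fold changes changed with array weights for 18 members (Adgrf5 -0.58, Adgrl4 -0.22, Bsg 0.11, Cd34 -0.068, Cdh5 -0.21, Cldn5 0.60, Erg -0.45, Flt1 -0.36, Fn1 -0.50, Icam2 -0.059, Ly6a -0.73, Ly6c1 -0.0011, Ocln -0.21, Slco1a4 -0.55, Sox17 -0.71, Sox18 -0.36, Tek -0.086 and Tjp1 0.26), with quantile normalization for Bsg 0.0084 and Tjp1 0.13, and with scaling to the library total for Tjp1 0.048. With each library in turn left out, members that changed sign ranged as follows: Adgrf5 -0.63 to 3.51, Adgrl4 -0.30 to 2.40, Bsg -0.48 to 0.18, Cd34 -0.15 to 0.19, Cdh5 -0.41 to 2.18, Cldn5 -0.80 to 0.37, Emcn -1.67 to 0.48, Erg -0.38 to 1.48, Flt1 -0.43 to 2.54, Fn1 -0.29 to 3.10, Itm2a -0.57 to 3.78, Kdr -0.74 to 0.15, Ly6a -0.58 to 4.09, Ly6c1 -0.10 to 4.91, Mfsd2a -0.084 to 1.54, Nos3 -0.078 to 2.04, Ocln -0.16 to 0.72, Pltp -0.46 to 2.04, Robo4 -0.077 to 3.61, Slco1a4 -0.33 to 3.20, Slco1c1 -0.017 to 4.25, Sox17 -0.92 to 2.97, Sox18 -0.49 to 4.19, Spock2 -0.40 to 1.30, Tek -0.94 to 3.74 and Tjp1 -0.26 to 0.21. Leaving out control replicate 2 accounted for 22 of these changes, and the cause was not tested. Trimmed-mean (TMM) factors were not run because they need raw counts; the median-of-ratios factors took their place.

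Replicate numbers run from 1 to 3 in both diets. Same-numbered libraries deviated from their group means with correlations of 0.26, 0.035 and 0.14 across genes, so the numbers were not taken as pairs. With the replicate number as a block, 0 members passed the adjusted threshold, 0 had an unadjusted p under 0.05, and the median log2 fold change was 1.13. The reads counted per gene could not be recovered, so no counting error could be given, and 3 libraries a group limit the precision.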
